A study of Mus musculus with 8 samples.

Results

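The core circadian clock loop was followed in the liver of WT mice and of mice that carry the PLIN5 S155A mutation. Its genes were chosen by name, as Arntl, Clock, Npas2, Per1, Per2, Per3, Cry1, Cry2, Nr1d1 and Nr1d2. All 10 genes had a row among the 45706 genes of the count table, and all 10 were among the 14629 genes that passed the filter on low counts. The 8 mice were females on the C57BL/6J strain, 4 months old, kept in a light-dark cycle and fasted overnight before harvest, with 1 liver library per mouse. The 4 WT and 4 S155A mice differ at the endogenous Plin5 gene, in which CRISPR-Cas9 exchanged a serine codon for an alanine codon (S155A) in the whole body, so that no cell type is singled out, and the edited line comes from a sequenced founder mouse. The description of each sample gives an animal number, and these numbers form a low series under 200 and a high series over 800, with 2 WT and 2 S155A mice in each. What the number series marks, and the hour at which each liver was taken, are not given in the sources used here, so the series cannot be told apart from anything else that differed between these sets of mice. The genotype comparison asks which liver transcripts depend on phosphorylation of PLIN5, a lipid droplet protein, at this serine.

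The clock is a transcriptional loop that runs in nearly every cell of the body. BMAL1, which is encoded by Arntl, pairs with CLOCK or its close relative NPAS2 and binds E-box sequences. This pair activates the Per and Cry genes, whose proteins return to the nucleus and repress it. The same pair activates Nr1d1 and Nr1d2, which encode REV-ERBα and REV-ERBβ. These nuclear receptors compete with ROR receptors at ROR elements and repress Arntl, Npas2, Clock and Cry1. In mouse liver, Arntl and Npas2 transcripts are highest near dawn, Nr1d1 during the day and Per transcripts around dusk. The liver clock is also set by feeding, glucocorticoids and cAMP.

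The start regions of 4 genes are shown as examples because the loop acts on such regions. Those of Per1 and Nr1d1 hold a full or a near E-box match, that of Per3 holds D-box matches only, and that of Arntl holds none of the forms searched. The reference sequences are those of RefSeq on build GRCm38.p6, and the table used here held start sites for 9 of the 10 genes. Each run is the 250 bases before the first listed start site, read in the direction of transcription. Capitals mark matches, on either strand, to the E-box core CACGTG, the near match CACGTT, the ROR element core AGGTCA or the D-box form TTANNTAA, where N is any base. No match of one form was also a match of another.
Arntl, chr7:113207215-113207464, forward strand: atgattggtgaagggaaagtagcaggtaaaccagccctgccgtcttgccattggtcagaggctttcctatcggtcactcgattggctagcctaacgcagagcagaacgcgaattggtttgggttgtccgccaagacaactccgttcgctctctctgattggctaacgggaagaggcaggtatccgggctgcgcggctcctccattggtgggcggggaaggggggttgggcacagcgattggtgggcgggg
Per3, chr4:151044666-151044915, reverse strand: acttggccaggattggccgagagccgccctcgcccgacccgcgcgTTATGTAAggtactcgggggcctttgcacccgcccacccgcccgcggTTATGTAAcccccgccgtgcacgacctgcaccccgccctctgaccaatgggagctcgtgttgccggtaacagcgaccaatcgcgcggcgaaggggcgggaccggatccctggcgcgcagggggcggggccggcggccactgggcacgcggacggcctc
Per1, chr11:69098699-69098948, forward strand: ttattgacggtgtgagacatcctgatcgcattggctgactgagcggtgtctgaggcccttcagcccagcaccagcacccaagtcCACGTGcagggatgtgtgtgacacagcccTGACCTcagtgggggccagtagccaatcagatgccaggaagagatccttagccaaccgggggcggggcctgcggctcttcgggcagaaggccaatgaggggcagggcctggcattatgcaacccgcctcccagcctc
Nr1d1, chr11:98775378-98775627, reverse strand: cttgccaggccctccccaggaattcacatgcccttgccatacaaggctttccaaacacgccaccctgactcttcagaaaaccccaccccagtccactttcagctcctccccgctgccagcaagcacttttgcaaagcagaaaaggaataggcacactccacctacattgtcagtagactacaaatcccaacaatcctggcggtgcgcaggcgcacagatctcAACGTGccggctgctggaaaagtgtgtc

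The Per3 window held 2 D-box matches, which began 205 and 158 bases before the start site. The Per1 window held an E-box core 166 bases before the start and a ROR element core 137 bases before it, while the window of the other listed Per1 start held no match. The Nr1d1 window held the near match at 28 bases, and none of the 4 forms was found in the windows of Arntl and Npas2. Among the other windows, that of Cry1 held an E-box core at 60 bases and a near match at 79 bases, that of Cry2 a near match at 166 bases and that of Nr1d2 a ROR element core at 77 bases. Clock held a ROR element core 119 bases before its last listed start. Of 32851 start regions of the same length in the reference table, 1978 (6.02%) held the E-box core, 1264 (3.85%) the near match, 4607 the ROR element core and 1785 (5.43%) the D-box form. Bases outside these windows and other forms of the elements were not searched, so a window without a match does not mean a gene without such elements. These matches describe the letters of the reference only, and whether they go with the direction of any difference between mice was not tested.

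The libraries held between 39709830 and 54540612 estimated counts. Plin5, the edited gene, was between 183 and 254 CPM (counts per 1000000 counts after TMM normalization) in WT mice and between 192 and 457 CPM in S155A mice, and its counts do not show the edited codon. In edgeR's quasi-likelihood test, the log2 fold change of Plin5 was 0.67 for S155A against WT mice (SE 0.24, unadjusted p = 0.0193, adjusted p = 0.993). For the high against the low series it was -0.55 (SE 0.17, unadjusted p = 0.0106, adjusted p = 0.262). The labels call the cells hepatocytes, and the summed CPM of 8 hepatocyte markers was between 91694 and 130291 in every library. A pair of libraries stood apart in markers of other cells. Of the 10 pancreatic acinar markers only 2 passed the filter, and their sum over the list was 42.9 CPM in WT replicate 2 and at most 6.58 CPM in the other mice. The sum of 12 B, plasma, T and NK cell markers was 2070 CPM in S155A replicate 3 and at most 49.1 CPM in the others. Both libraries belong to the high series. All 12 of the latter markers were higher in the high series (median log2 fold change 0.44) and in S155A mice (median 0.84). S155A replicate 3 is in both of these groups, and the markers were not compared without it. Sums of 8 Kupffer cell markers (224 to 514 CPM), of 8 endothelial markers (144 to 264 CPM) and of 5 adipocyte markers (0.0792 to 0.800 CPM) overlapped between genotypes. In S155A mice 8 of 8 Kupffer cell markers were higher (median log2 fold change 0.24) and 2 of 8 endothelial markers were higher (median -0.26). None of the adipocyte markers passed the filter and 1 was at 0 in all mice. Between the series the endothelial sum was 185 to 264 CPM at low numbers and 144 to 199 CPM at high numbers, with 1 of 8 endothelial markers higher in the high series. The part of these cells in the values below was not tested beyond the fits without both libraries. In bulk liver, fewer cells of a type and less RNA per cell cannot be told apart.

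Across genotypes the clock genes showed no shift that exceeded the spread between mice. With edgeR's quasi-likelihood test, 0 of 10 genes passed an adjusted p of 0.05, as did 0 (0%) of all 14629 genes. An unadjusted p under 0.05 was reached by 0 of 10 clock genes, against 497 genes or 3.40% of all genes tested, and the WT and S155A mice overlapped for all 10, where 2.30% of all genes did not overlap. The clock genes divided evenly, with 5 higher and 5 lower in S155A mice and a median log2 fold change of -0.0091 beside -0.0050 over all genes. For Cry1 and Per2 the sign itself depended on the scaling, since both turned negative when library size alone was used.

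Arntl averaged 7.74 ± 6.11 CPM in WT mice and 7.59 ± 7.24 CPM in S155A mice (SD, n = 4 each), a log2 fold change of -0.024 with a standard error (SE) of 0.75. The values of Per3, at 15.5 ± 12.6 and 19.5 ± 16.1 CPM, gave 0.32 with a standard error of 0.75. Per1 was at 50.3 ± 12.6 CPM in WT mice and 59.1 ± 7.83 CPM in S155A mice, a log2 fold change of 0.23 (SE 0.18). That of Clock was -0.26 (SE 0.25), the most negative after Npas2 at -0.33 (SE 0.96), and it was -0.026 without WT replicate 1. The remaining log2 fold changes were 0.025 for Per2, 0.0060 for Cry1, 0.14 for Cry2, -0.20 for Nr1d1 and -0.16 for Nr1d2. Adjusted p was at least 0.993 for each of the 10 genes in edgeR's test, and the exact permutation p of each gene was at least 0.286. Single mice were far apart for several of these genes. The standard deviation of log2 CPM over the 8 mice was 1.33 for Arntl, 1.38 for Per2, 1.38 for Per3 and 1.95 for Npas2. These spreads exceeded those of 98.6% to 99.6% of all genes tested. Those of Per1 (0.31) and Cry2 (0.32) were near the middle, above 56.0% and 57.0% of genes.

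The spread within genotypes followed the animal numbers in part. In the high series, Arntl, Clock, Npas2 and Cry1 were lower, and Per1, Per2, Per3, Cry2, Nr1d1 and Nr1d2 were higher, than in the low series. The largest differences were a log2 fold change of -2.21 for Arntl and 2.12 for Per3. For 6 of the 10 genes no mouse of one series overlapped with any mouse of the other. None passed an adjusted p of 0.05 in edgeR's test with genotype as a term, as was the case for all 14629 genes (0 called, 0%). An unadjusted p under 0.05 was reached by 10 of 10 clock genes, 6 higher and 4 lower, against 1877 genes or 12.8% of all genes tested. The 6 genes without overlap, 3 higher and 3 lower in the high series, compare with 1002 genes or 6.85% of all genes tested. The median size of the log2 fold change, without regard to sign, was 0.83 over the 10 genes and 0.18 over all genes tested. The number of genes called varied with the test, the filter and the mice used. DESeq2 in place of edgeR called 7 of 10 clock genes and 2.96% of the genes it adjusted. Limma-voom called 0 of 10. EdgeR without a filter on low counts called 9 of 10 clock genes and 2.29% of genes. Leaving out WT replicate 3 gave 2 of 10 clock genes, Arntl and Nr1d2, and 0.746% of genes.

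**Figure D1:**
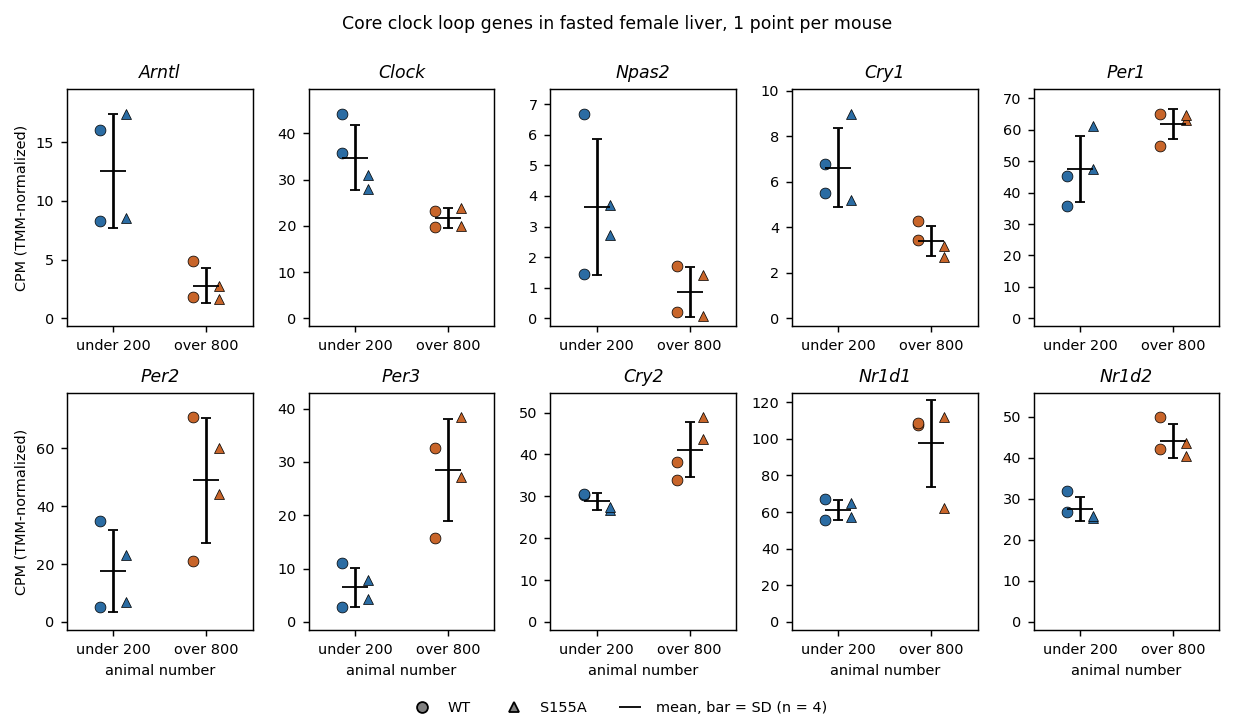
CPM of the 10 core clock genes in each of the 8 mice (vertical axes, linear, separate for each gene), with mice split by animal number and marked by genotype; the horizontal line is the mean and the bar the SD of 4 mice. The series do not overlap for Arntl, Clock, Cry1, Per3, Cry2 and Nr1d2, while circles (WT) and triangles (S155A) are apart within both series for Cry2, within the low series for Clock, Per1 and Nr1d2 and within the high series for Cry1.

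The values of each gene are given below in the order of animal numbers: 89 (WT), 90 (S155A), 118 (S155A) and 123 (WT) for the low series, then 830 (S155A), 831 (S155A), 856 (WT) and 869 (WT) for the high series. Differences tested by permutation of the mice are two-sided and exact, and the lowest p that 4 mice against 4 can give is 0.0286. Such tests were run for 10 genes in both comparisons, 20 in all, and their p-values are not adjusted. Adjusted p-values refer to edgeR's quasi-likelihood test over all genes.

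Arntl, for the activator BMAL1 (ENSMUSG00000055116, chromosome 7 from 113207465 to 113314126) was at 16.01, 17.4, 8.56 and 8.26 CPM in the low series and at 2.75, 1.61, 1.81 and 4.88 CPM in the high series. Every mouse of the high series was below every mouse of the low series, and within the low series the neighbours 89 and 90, of different genotypes, were both higher than 118 and 123. The log2 fold change was -2.21 (SE 0.40, unadjusted p = 0.000334, adjusted p = 0.108), which ranked Arntl at 45 of 14629 genes by p, and the exact permutation test gave p = 0.0286. The difference was -1.93 in WT mice and -2.51 in S155A mice (mean log2 CPM, 2 mice against 2, no test).

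Clock (ENSMUSG00000029238, chromosome 5 from 76209868 to 76304792), the partner of BMAL1, was at 35.8, 28.0, 31.1 and 44.3 CPM in the low series and at 23.9, 19.96, 19.8 and 23.2 CPM in the high series. The series did not overlap, but the step was smaller than that of Arntl, with a log2 fold change of -0.66 (SE 0.14, adjusted p = 0.148, exact permutation p = 0.0286). Npas2 (ENSMUSG00000026077, chromosome 1 from 39193731 to 39363236), which can stand in for CLOCK, was at 6.69, 3.72, 2.71 and 1.44 CPM and then at 1.43, 0.0792, 0.219 and 1.71 CPM. Npas2 had few reads, with 3 counts in animal 831 after rounding, and its series overlapped through animals 123 and 869. Its log2 fold change was -2.07 (SE 0.80, adjusted p = 0.328, exact permutation p = 0.0571).

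The REV-ERB genes lay on the other side. Nr1d2 (ENSMUSG00000021775, chromosome 14 from 18204054 to 18239127), for REV-ERBβ, was at 26.8, 25.9, 25.3 and 31.8 CPM in the low series and at 40.3, 43.7, 49.9 and 42.0 CPM in the high series. These are narrow groups with a clear gap, and Nr1d2 had the smallest p of the clock genes, ranking 14 of 14629 (log2 fold change 0.68, SE 0.098, unadjusted p = 5.92e-05, adjusted p = 0.0618). The difference was 0.65 in WT mice and 0.71 in S155A mice. Nr1d1 (ENSMUSG00000020889, chromosome 11 from 98767932 to 98775333), for REV-ERBα, was at 55.8, 57.1, 65.0 and 66.9 CPM and then at 112, 62.1, 108 and 108 CPM. Animal 831, S155A replicate 3, lay among the low series, and the other mice of the high series lay well above it. The log2 fold change of Nr1d1 was 0.66 (SE 0.18, adjusted p = 0.205, exact permutation p = 0.0857). The exons of Nr1d1 share 263 of 3077 bases with Thra on the opposite strand, and the use of strand in the counting is not given in the sources used here. Thra was between 12.2 and 20.4 CPM, with a log2 fold change of -0.22 between the series (adjusted p = 0.610).

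Among the period genes, which encode the repressors PER1, PER2 and PER3, Per3 differed most. Per3 (ENSMUSG00000028957, chromosome 4 from 151003652 to 151044665) was at 2.78, 4.25, 7.95 and 11.0 CPM in the low series and at 27.3, 38.4, 32.6 and 15.7 CPM in the high series. The series did not overlap, and the ends of the order were the reverse of those of Arntl, with animals 89 and 90 lowest and 831 highest. Its log2 fold change was 2.12 (SE 0.43, adjusted p = 0.147, exact permutation p = 0.0286), with 2.03 in WT mice and 2.47 in S155A mice.

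Per2 (ENSMUSG00000055866, chromosome 1 from 91415982 to 91459324) was at 5.31, 6.74, 23.2 and 35.0 CPM and then at 44.4, 60.1, 70.7 and 20.95 CPM. Animal 869 lay below 118 and 123, so the series overlapped, and animals 89 and 90 stood apart at the low end. The log2 fold change was 1.49 (SE 0.61, adjusted p = 0.348, exact permutation p = 0.0857), and it was 2.27 when WT replicate 1 was left out and at least 1.16 when any other single mouse was. Per1 (ENSMUSG00000020893, chromosome 11 from 69095217 to 69109960), the period gene that also answers to glucocorticoids and cAMP, was at 35.8, 61.2, 47.5 and 45.4 CPM and then at 63.0, 64.6, 65.1 and 54.95 CPM. Animal 90 exceeded animal 869, and the remaining mice kept to their sides. Per1 had the smallest difference of the 10 genes, 0.40 on the log2 scale (SE 0.13, adjusted p = 0.273, exact permutation p = 0.0571).

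The cryptochrome genes, whose proteins repress CLOCK and BMAL1 together with PER, went opposite ways. Cry1 (ENSMUSG00000020038, chromosome 10 from 85131700 to 85185064) was at 6.77, 9.00, 5.19 and 5.52 CPM in the low series and at 2.71, 3.17, 3.43 and 4.30 CPM in the high series. Its series did not overlap, and like Arntl it was highest in animal 90. The log2 fold change was -0.97 (SE 0.23, adjusted p = 0.186, exact permutation p = 0.0286). Cry2 (ENSMUSG00000068742, chromosome 2 from 92403646 to 92434043) was at 30.6, 27.5, 26.7 and 30.4 CPM and then at 43.7, 48.9, 38.2 and 33.9 CPM. The groups were apart again, with a log2 fold change of 0.51 (SE 0.12, adjusted p = 0.192, exact permutation p = 0.0286). Exons of Cry2 share 295 of 6320 bases with D930015M05Rik on the opposite strand, which was at most 0.132 CPM, and 33 exon bases of Arntl are shared with Gm45355 in the same way.

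**Figure D2:**
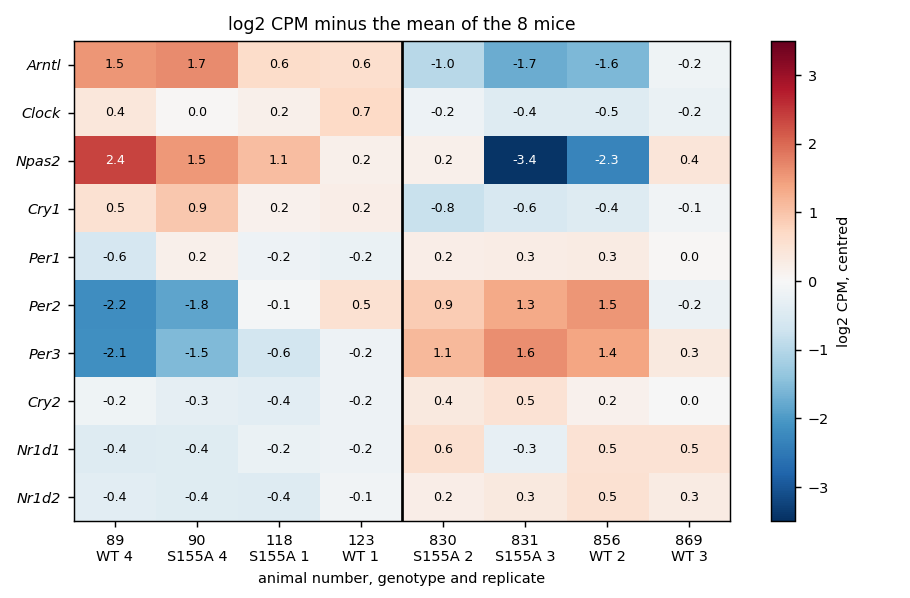
Heat map of log2 CPM of each clock gene minus its mean over the 8 mice, with mice in the order of their animal numbers and a line between the low and the high series. Arntl, Clock, Npas2 and Cry1 are mostly red on the left and blue on the right, but Npas2 is above its mean in animals 830 and 869. The period and REV-ERB genes are the reverse in most mice.

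Mouse by mouse, the 10 genes did not place all mice of a series at the same point. Counting for each mouse how many of the 10 genes deviated from the mean of the 8 mice in the direction of the high series, animal 856 (WT) had 10, animals 830 and 831 (S155A) had 9 each and animal 869 (WT) had 7. Animals 89 (WT) and 118 (S155A) had 0, and animals 90 (S155A) and 123 (WT) had 1 each. The directions were those of the series difference itself, so the counts describe the mice and test nothing. The mean deviation of the activators Arntl, Clock and Npas2 in log2 CPM was 1.44 and 1.08 in animals 89 and 90, and 0.64 and 0.49 in animals 118 and 123. In the high series it was -0.33, -1.87, -1.45 and 0.011 in the order of numbers. For the 3 period genes the corresponding means were -1.63, -1.06, -0.29 and 0.039, and then 0.75, 1.07, 1.07 and 0.057. Animal 869 was thus the mouse of the high series nearest to the low series in the activators and in the period genes.

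Leaving out single mice or changing the fit did not turn the direction of the series difference for any of the 10 genes, in 160 refits of single genes. Without both libraries that stood apart in markers of other cells, WT replicate 2 and S155A replicate 3, the log2 fold change was -1.75 for Arntl, -0.55 for Clock, -1.22 for Npas2 and -0.93 for Cry1. On the other side it was 0.32 for Per1, 0.87 for Per2, 1.69 for Per3, 0.42 for Cry2, 0.84 for Nr1d1 and 0.58 for Nr1d2. The differences of Npas2 and Per2 shrank most, by more than 1.5 times, and no gene passed an adjusted p of 0.05 in that fit of 6 mice.

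With the series as a term, the genotype difference was estimated more closely. The standard error of the genotype log2 fold change went from 0.75 to 0.39 for Arntl, from 0.75 to 0.41 for Per3 and from 0.24 to 0.098 for Nr1d2. It fell less for Per2, from 0.73 to 0.60, and for Npas2, from 0.96 to 0.78. The estimates themselves were then -0.23 for Arntl, 0.14 for Per3 and -0.16 for Nr1d2. Adjusted p was at least 0.945 for all 10 genes in this edgeR fit, with the largest sizes -0.33 for Npas2 (SE 0.78) and 0.25 for Per1 (SE 0.13).

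**Figure D3:**
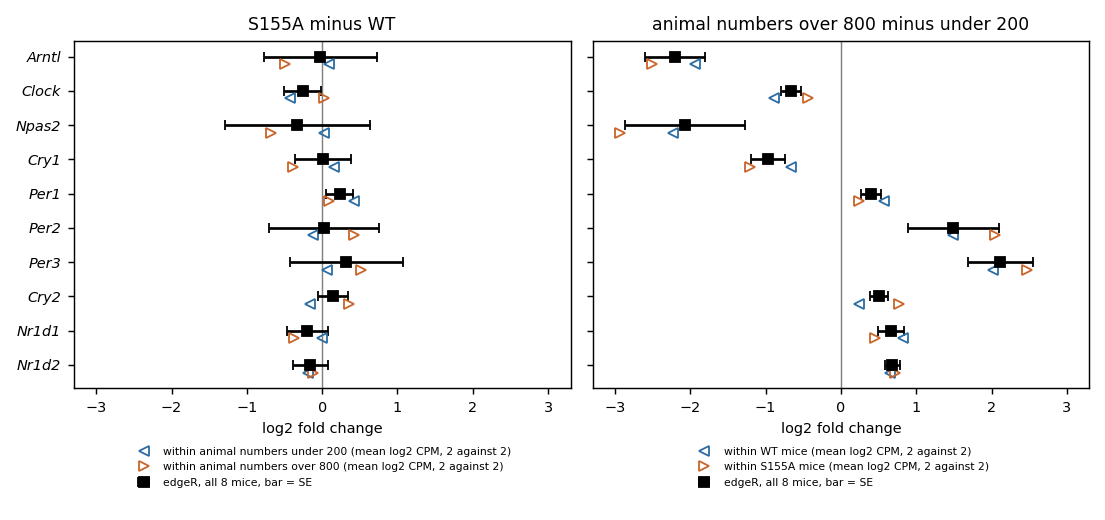
Log2 fold changes of the 10 clock genes for S155A minus WT (left) and for animal numbers over 800 minus under 200 (right). Squares give edgeR's estimate, with a standard error worked back from its F statistic. Open triangles give the same difference within each series or genotype, 2 mice against 2. Squares on the left lie between -0.33 and 0.32, and those on the right between -2.21 and 2.12 with triangles of both genotypes on the same side of 0.

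Whether the genotype difference itself differed between the series was tested as an interaction. None of the 10 genes passed (0 of 10, and 0% of all genes, at an adjusted p of 0.05 in edgeR's test), and 1 had an unadjusted p under 0.05, against 11.1% of all genes. That gene was Cry2, which was higher in the high series by 0.24 in WT mice and by 0.77 in S155A mice (interaction 0.53, SE 0.18, unadjusted p = 0.0155, adjusted p = 0.342). Put the other way, Cry2 differed between S155A and WT mice by -0.17 among low numbers and by 0.36 among high numbers. For Clock the genotype difference was -0.43 and 0.027 (interaction 0.47, SE 0.23, adjusted p = 0.504). The widest interval belonged to Npas2, whose interaction of 0.026 had a standard error of 1.65. The interactions of the other genes ran from -0.71 for Arntl to 0.61 for Per2 and Per3, each with an adjusted p of at least 0.640.

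Genes that act beside the loop were read from 5 lists. The first held output factors and ROR receptors, of which 11 of 12 were tested. None passed an adjusted p of 0.05 in any of the 3 comparisons. Between the series, 8 were higher and 3 lower in the high series, with a median log2 fold change of 0.47 beside -0.0045 over all genes. In edgeR's test 45.5% had an unadjusted p under 0.05, 4 higher and 1 lower, against 12.8% of all genes tested. The series did not overlap for 2 of 11, both higher, where 6.85% of all genes tested did not overlap. Dbp encodes a D-box activator that is driven by CLOCK and BMAL1. It was between 9.33 and 24.5 CPM in the low series and between 66.1 and 153 CPM in the high series, with no overlap (log2 fold change 2.99, SE 0.39, adjusted p = 0.0618 in edgeR's test). Bhlhe40, an E-box repressor, was between 57.4 and 61.5 CPM and then between 75.8 and 212 CPM (log2 fold change 1.07, adjusted p = 0.159). Tef, a relative of Dbp, overlapped between the series, with a log2 fold change of 1.09 (adjusted p = 0.238).

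Of 12 liver genes with a known daily rhythm, all were tested, with 8 higher and 4 lower in the high series and a median log2 fold change of 0.44. An unadjusted p under 0.05 was reached by 9 of them, 5 higher and 4 lower, against 12.8% of all genes tested, and 0 passed after adjustment. Cdkn1a, a cell cycle inhibitor that REV-ERBα represses, was between 41.9 and 58.5 CPM in the low series and between 13.95 and 30.7 CPM in the high series (log2 fold change -1.43, SE 0.18, adjusted p = 0.0618 in edgeR's test). Wee1, a cell cycle kinase with E-boxes in its promoter, was between 0.534 and 1.20 CPM and then between 1.26 and 5.17 CPM (log2 fold change 2.05, adjusted p = 0.159). Upp2, a uridine phosphorylase, had a log2 fold change of 1.97 (adjusted p = 0.185) with overlapping series. In the genotype comparison, 11 of these 12 genes were higher in S155A mice, with a median of 0.36, where 7138 of all 14629 genes were higher and the median was -0.0050. Of the 12 genes, 0 had an unadjusted p under 0.05, against 3.40% of all genes.

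The list of glucocorticoid and cAMP responsive genes, which holds Per1 as well, had 5 genes higher and 7 lower in the high series, with a median of -0.063. Of these, 3 higher and 2 lower genes had an unadjusted p under 0.05 in edgeR's test, against 12.8% of all genes tested. The median size of the log2 fold change, without regard to sign, was 0.43 in the list and 0.18 over all genes tested. Beside Per1, the smallest p belonged to Nr4a1, a nuclear receptor gene induced by cAMP, which ran from 2.24 to 92.8 CPM in the low series and from 2.24 to 8.27 CPM in the high series (log2 fold change -2.93, SE 0.97, adjusted p = 0.275 in edgeR's test). It was followed by Tsc22d3, a glucocorticoid target, which was between 47.1 and 114 CPM and then between 120 and 157 CPM without overlap (log2 fold change 0.72, adjusted p = 0.282). Tsc22d3 was the only gene of the 12 without overlap, where 6.85% of all genes tested did not overlap. None of the 12 genes passed.

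Enzymes that modify clock proteins, and cofactors of the loop, had median differences near 0 between the series. The 16 kinases, ubiquitin ligases and related enzymes lay around a median difference of -0.038 (log2), with 6 higher and 10 lower. Usp2, a deubiquitinase whose transcript is itself rhythmic, was the exception at 2.28 (SE 0.60, adjusted p = 0.205 in edgeR's test), and the 15 others lay between -0.35 and 0.29. Csnk1d, for a casein kinase that phosphorylates PER, was at -0.23 and Usp7 at -0.17. The 12 cofactors had a median of -0.076, with 3 higher and 9 lower. Ep300, an acetyltransferase gene, was at -0.29 (adjusted p = 0.299), Hdac3, for the deacetylase recruited by REV-ERB, at 0.20 (adjusted p = 0.372) and Ncor1, for its corepressor, at -0.21 (adjusted p = 0.413). The series did not overlap for Ep300, Hdac3 and Usp7, where 6.85% of all genes tested did not overlap. In edgeR's test, 16.7% of the cofactors and 6.25% of the enzymes had an unadjusted p under 0.05, against 12.8% of all genes tested. In the genotype comparison 10 of the 12 cofactors were lower in S155A mice (median -0.19), and 2 had an unadjusted p under 0.05 against 3.40% of all genes. These were Kdm5a, a histone demethylase gene, at -0.39 and Ncor1 at -0.27, each with an adjusted p of 0.993 in edgeR's test. None of the genes of these lists passed an adjusted p of 0.05 in the genotype comparison or in the interaction.

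**Figure D4:**
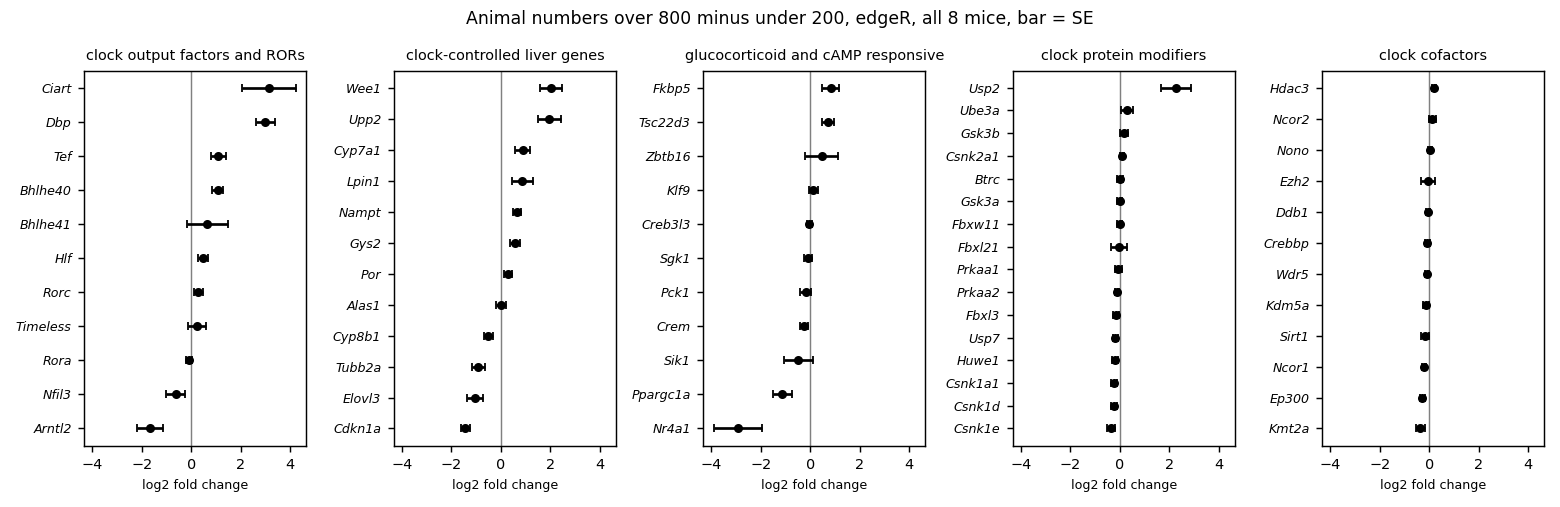
Log2 fold changes between animal numbers over 800 and under 200, for the tested genes of 5 lists of genes that act beside the clock loop (Per1 is left out of its list). Bars are standard errors worked back from edgeR's F statistic. Output factors and clock-controlled genes spread from -1.67 to 3.15, whereas modifiers other than Usp2 and cofactors lie within 0.36 of 0.

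The genes whose pattern over the 8 mice was most like that of Arntl were ranked by Pearson's r of log2 CPM among all genes tested. These values describe 8 mice in 2 series, were selected as extremes, and carry no test. The highest were Clpx (r = 0.996), Mospd1 (0.978), Rnf144a (0.978), Lonrf3 (0.976) and Rfxank (0.971). Clpx, which encodes a mitochondrial chaperone of a protease, ran from 72.2 to 287 CPM. The lowest were Dbp (-0.986), Wee1 (-0.980), Parp10 (-0.978), Per3 (-0.976) and Hes6 (-0.975). Among the other clock genes, r with Arntl was 0.93 for Cry1, 0.90 for Npas2 and 0.77 for Clock. It was -0.92 for Nr1d2, -0.91 for Per2, -0.88 for Cry2, -0.69 for Per1 and -0.62 for Nr1d1. For Nr1d1 the highest were Gm10709 (0.959), Gm12909 (0.954), Mrps25 (0.948), Ubb (0.940) and ENSMUSG00000106040 (0.940), and among the lowest were Mylk3 (-0.935), AU021092 (-0.925), Gm14494 (-0.918) and Arl15 (-0.916). No clock gene was among them, and the nearest was Nr1d2 at 0.75.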

How the data were processed

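RNA sequencing of liver was analysed for 4 WT and 4 S155A female mice. Libraries were poly(A)-selected stranded libraries read as paired ends. The deposited values are estimated counts for each gene, which the authors made with salmon, scaled by length and not by library size. The version of salmon, the annotation and the use of strand are not given in the sources used here. The submitters' processing notes name GRCm38, STAR and DESeq2 with no role. Each column was matched to a mouse by its animal number. Length scaling can alter counts where isoforms differ between mice, so levels were not compared between genes.

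Estimated counts were rounded. Genes were kept with filterByExpr (14629 of 45706) and compared in R 4.3.3 by edgeR (4.0.16, quasi-likelihood test, TMM factors), with Benjamini-Hochberg adjustment over all genes. Models held genotype, genotype and number series, or their interaction. EdgeR's test gives no standard error. Each one given with it is the size of the log2 fold change divided by the square root of the test's F statistic. Log2 CPM used a prior count of 2, and single genes were also compared by exact permutation. Nothing in the labels says that mice with the same replicate number were paired, so no block was used. The correlation of their deviations from the group means was 0.056, 0.17, -0.11 and 0.13. No libraries were copies of each other, since the smallest chi-square between any pair was 40.5 per gene. The tests were checked on simulated counts. Precision is limited by 4 mice per group.

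The clock genes, lists and tests were chosen with earlier results of these data known. The rule for named genes gave the 10 clock genes, Plin5, the 3 genes of each list with the smallest p between the series, and the 5 genes most and least like Arntl and Nr1d1. One gene that this rule gave is not reported here. Positions of genes were read from GENCODE M21 on GRCm38. Alternatives were DESeq2 1.42.0, limma-voom (limma 3.58.1), DESeq2 size factors, library size alone, no filter, at least 1 CPM in 4 mice, a replicate block, the series as a term, no term for genotype, leaving out each mouse, and, chosen after seeing the data, leaving out WT replicate 2 and S155A replicate 3 together.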

Additional observations from a re-analysis of the deposited data

Results flagged for a closer look

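A lone distant mouse was looked for in 40 sets of 4 mice, for the 10 clock genes within each genotype and each number series, where chance gives about 2. The search found 2, both for Nr1d1. In S155A mice, replicate 2 was at 112 CPM (111.7) and the 3 others were between 57.1 and 65.0 CPM. In the high series, S155A replicate 3 was at 62.1 CPM and the 3 others were between 108 and 112 CPM. The same 2 mice were close in Nr1d2, at 40.3 and 43.7 CPM. S155A replicate 3 is also the library with 2070 CPM of lymphocyte and plasma cell markers, and its part in the Nr1d1 value was not tested.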

How the results depend on the processing

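The direction of the series difference held for all 10 clock genes under every alternative run. How many genes passed an adjusted p of 0.05 did not hold, and the cause was not tested. DESeq2 called 6 genes for genotype, 408 for the series and 285 for the interaction, where edgeR called 0. Without the filter edgeR called 514 for the series and 765 for the interaction, and without a term for genotype 12 for the series. Limma-voom called 1 gene for the interaction. Leaving out each mouse gave between 0 and 111 genes for the series, 0 and 40 for the interaction, and 0 for genotype. Mice that share a replicate number are not paired by any source. With a replicate block 4 genes were called for the interaction and 0 for genotype, and the series could not be fitted because it is nested in the replicate numbers.

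Genotype differences changed sign for 8 of the 10 genes under some alternative. On the log2 scale Cry1 was at -0.086 with limma-voom, -0.010 with library size alone, -0.11 with the replicate block and -0.086 with the series as a term. Per2 was at -0.023 with library size alone and -0.12 with the series as a term, and Nr1d1 at 0.013 without WT replicate 2 and S155A replicate 3. Leaving out each mouse gave -0.84 to 0.61 for Arntl, -0.44 to 0.22 for Cry1, -0.026 to 0.27 for Cry2, -0.82 to 0.83 for Npas2, -0.30 to 0.011 for Nr1d2, -0.41 to 0.72 for Per2 and -0.24 to 0.98 for Per3. With single mice left out the sign held, over wide ranges, for Clock (-0.42 to -0.026), Nr1d1 (-0.46 to -0.054) and Per1 (0.099 to 0.38). The series difference ran from 1.16 to 2.27 for Per2 and from -2.85 to -1.50 for Npas2. The interaction of Npas2 was -0.012 with DESeq2, -0.66 with limma-voom, -0.14 with library size alone and -0.38 with the replicate block. That of Nr1d1 was 0.043 without both libraries, and that of Nr1d2 -0.085 with library size alone. Leaving out each mouse gave interactions of -1.26 to 0.18 for Arntl, -3.22 to 2.14 for Npas2, -0.79 to 0.055 for Nr1d1, -0.056 to 0.19 for Nr1d2, -1.30 to 1.77 for Per2 and -0.69 to 1.28 for Per3. None of these was called.

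With 4 mice per group, 3 counts of Npas2 in 1 library and no hour of harvest, the data limit what can be said of small genotype differences.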
